A study of Rattus norvegicus with 22 samples.

Results

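The genes described here encode the protein subunits of the mitochondrial ribosome, measured in rat lung after acute pulmonary embolism (PE). They were taken by symbol, as every gene whose current symbol begins with Mrpl or Mrps followed by a digit, and each was represented by its brightest probeset over all arrays. This gave 73 genes out of 14217 with a probeset of their own, 46 of the large subunit (Mrpl) and 27 of the small subunit (Mrps) by symbol. Mrps18a and Mrps30 are kept with the small subunit by symbol, although both proteins sit in the large subunit. The symbols of mrpl9, mrpl11 and mrpl24 are written in lower case in the annotation and so fall outside the rule; their values are given beside the members.

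The mitochondrial ribosome translates the few messages of the mitochondrial genome, which encode core subunits of the respiratory chain and of ATP synthase. Its RNA comes from the mitochondrial genome, whereas all its proteins are encoded in the nucleus, made on cytosolic ribosomes and imported. About its bacterial core, which includes the peptidyl transferase centre and the decoding centre, the mammalian particle carries many proteins that bacteria lack.

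Male Sprague–Dawley rats of about 350 g were injected through the right jugular vein, and RNA of right lung tissue taken 18 h or 2 h later was hybridised to 22 Affymetrix arrays, so that every rat had its own array. Severe PE rats received 2000000 polystyrene microspheres of 25 micron per 100 g of body weight (0.15 ml per 100 g, PE2.0 in the labels). Mild PE rats received 1300000 per 100 g in a smaller volume (0.1 ml per 100 g, PE1.3). Vehicle rats received only the fluid that carried the beads, Tween 20 at 0.01%, in the volume of Severe PE. There were 4 Severe PE, 4 Mild PE and 3 Vehicle rats at each time. All lungs were lavaged with 8 ml of saline before excision, so cells free in the airspace were partly removed in every group, and inert beads replaced a thrombus.

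Levels are log2 probeset signals after quantile normalization, and differences between groups are on the same log2 scale. A gene was called where limma's adjusted p was below 0.05 over all 31042 probesets with at least a 1.5-fold difference. The 22 arrays had like overall signal, with 13.6% to 17.3% of probesets under the floor of 16. On 4 arrays (18-h Vehicle rat 1, 18-h Mild PE rat 4, 2-h Vehicle rat 3 and 2-h Severe PE rat 1) the Gapdh control signal was weaker toward the 5′ end, with a log2 difference of 3′ over 5′ probes of 0.346 to 0.638, against 0.176 to 0.322 on the others. Counts of called members that changed without these arrays are given both ways. The surfactant genes Sftpc and Sftpb, 2 of 8 alveolar type II markers read here, had group means from 14.45 to 14.74 in all 6 groups. Not all of the 8 were so steady, since the group means of Lamp3 ran from 11.60 to 12.66. Quantile normalization gives every array the same set of values, and Sftpc and Sftpb lie near its top. The steadiness of these 2 genes was thus partly set by the scaling.

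All 73 members were above the floor on all 22 arrays, and 72 of them had a mean above that of the median probeset; Mrpl47 was the exception. As a group their signal was higher at 18 h than at 2 h, and at 18 h it was highest after PE. The median deviation of the 46 large subunit genes from each gene's own mean over all arrays at 18 h was 0.01 ± 0.04 in Vehicle, 0.14 ± 0.07 after Mild PE and 0.21 ± 0.08 after Severe PE (mean ± SD, n = 3, 4 and 4 rats). At 2 h it was -0.16 ± 0.14 in Vehicle, -0.08 ± 0.04 in Mild PE and -0.14 ± 0.05 in Severe PE lungs. The 27 small subunit genes gave -0.05 ± 0.01, 0.15 ± 0.12 and 0.19 ± 0.12 at 18 h, and -0.14 ± 0.13, -0.08 ± 0.04 and -0.13 ± 0.07 at 2 h, in the same order of doses.

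For the large subunit, the 4 Severe PE rats at 18 h (0.11 to 0.29) did not overlap the 3 Vehicle rats at that time (-0.03 to 0.05), and every rat of both PE groups at 18 h lay above every rat at 2 h. For the small subunit, 18-h Severe PE (0.03 to 0.29) again lay above 18-h Vehicle (-0.06 to -0.04), while the lowest 18-h Mild PE rat was at -0.01. The lowest value of all, -0.31 for the large and -0.28 for the small subunit, was that of 2-h Vehicle rat 3, one of the arrays with weak 5′ signal. The spread of the 48 cytosolic ribosomal protein genes, which build the other ribosome of the cell, was much narrower. Their group means lay between -0.03 and 0.03 and their single rats between -0.07 and 0.05. They were also brighter, with a mean log2 signal of 12.54 to 12.65 by group, against 9.94 to 10.29 for the members.

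The design was first read with time and dose as factors in 1 model of all 22 arrays. Across all probesets 22.9% passed this model at 1.5-fold between the highest and lowest group mean, and 17 of 73 members did (23.3%, against 29.2% of all genes). Without the 4 arrays of weak 5′ signal it was 14 members, with 19.7% of all probesets. The time term taken alone passed at adjusted p below 0.05 for 44 of 73 members, 28 of the large and 16 of the small subunit (60.3%, against 30.6% of all genes). In all 44 the 18-h mean was the higher. Among all genes, the term passed with a higher 18-h mean in 17.7%, among the cytosolic ribosomal proteins in 18.8% and among the nuclear subunits of the respiratory chain and ATP synthase in 16.2%. High shares were not particular to the members. In either direction it passed for 15 of 25 mitoribosome assembly factors (60%), 8 of 15 mitochondrial translation factors (53.3%) and 8 of 16 mitochondrial tRNA synthetases (50%). For mitoribosome proteins under other symbols it was 4 of 5, for mitochondrial transcription and its regulators 6 of 14 (42.9%) and for mitochondrial proteases 3 of 7 (42.9%). With each array centred on its median instead, 52 members passed, all higher at 18 h, against 33.8% of all genes, and this scaling placed the median of all probesets 0.11 higher at 18 h. With no further normalization it was 44, of which 43 were higher, against 31.4% of all genes. Without the 4 arrays of weak 5′ signal 34 passed, all higher, against 24.1% of all genes.

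The largest differences between times, averaged over the 3 doses, were in Mrpl38 (9.24 at 18 h and 8.43 at 2 h, adjusted p = 8.7e-06 for the time term of limma's model), Mrps34 (10.66 and 9.91, 4.02e-05), Mrps2 (10.17 and 9.54, 2.56e-05) and Mrpl54 (11.91 and 11.30, 4.16e-06). Mrps2 is a small subunit protein with a bacterial counterpart, and Mrpl54 a large subunit protein without one. Mrpl12, which forms the stalk that recruits translation factors, averaged 11.36 at 18 h and 10.83 at 2 h (adjusted p = 0.000235). Mrpl37, Mrpl55 and Mrpl57 differed by 0.49, 0.55 and 0.53. Of the members whose mean was lower at 18 h, Mrpl47 (-0.45) and Mrps31 (-0.33) were farthest from 0, and neither passed (adjusted p = 0.143 and 0.0601).

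In Vehicle rats alone, where time passed without beads, no member was called between 18 h and 2 h (limma, 0.0161% of all probesets called). At unadjusted p below 0.05 there were 14 of 73 (19.2%, against 20.3% of all genes), and the methods' t-test called none. The median difference, 18 h over 2 h, was 0.14 over the large and 0.08 over the small subunit, beside 0.06 over all genes. The largest rises were those of Mrpl57 (0.79 ± 0.25, SE) and Mrpl34 (0.71 ± 0.16), with adjusted p of 0.280 and 0.220. The lowest value was -0.71 in the large subunit (Mrpl47, 6.36 at 18 h and 7.07 at 2 h) and -0.61 in the small subunit. Of the 73 members 53 were above 0 (72.6%, against 55.5% of all genes). Time after injection cannot be told apart from anything else that differed between the 18-h and 2-h rats.

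Markers of several cell types differed between the times as well. The time term passed for 5 of 5 alveolar type I, 5 of 7 neutrophil, 5 of 8 alveolar type II, 4 of 7 endothelial, 4 of 8 macrophage and monocyte, 5 of 10 proliferation, 2 of 7 lymphocyte, 2 of 4 club and ciliated cell, 2 of 5 muscle and 0 of 5 erythroid markers. Among all genes it passed for 30.6%, a share that the lymphocyte (28.6%) and erythroid (0%) markers did not reach. In Vehicle rats alone no marker was called by limma. The summed neutrophil signal was 13436 to 25841 at 18 h and 5300 to 9604 at 2 h, and the lymphocyte sum 8500 to 10478 at 18 h and 3795 to 8479 at 2 h. Neither sum overlapped between the times, though the lymphocyte ranges nearly met. The median difference, 18 h over 2 h, was 1.05 over the neutrophil, 0.89 over the erythroid and 0.61 over the lymphocyte markers, and -0.11 over the alveolar type I markers. The part of these shifts in the time term of the members was not tested.

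The comparison of 18-h Severe PE with 18-h Vehicle asks what the larger load of beads had changed by the next day. Of the 73 members, 7 were called higher (Mrpl38, Mrps6, Mrps22, Mrps18b, Mrps27, Mrpl54 and Mrps34) and 1 lower (Mrpl14). Across all probesets 7.13% were called, 3.21% higher and 3.91% lower. By gene, 4.29% of all genes were called higher and 5.61% lower, so that the 11% of members called in either direction stands beside 9.90% of all genes, with the balance of directions the other way round. Without the 1.5-fold requirement, 14 members passed (13 higher and Mrpl14 lower), against 13.5% of all genes. At unadjusted p below 0.05 there were 29 (39.7%, against 33.4%).

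The shift was broad and small. The median difference was 0.21 over the large subunit (37 of 46 above 0) and 0.26 over the small subunit (19 of 27 above 0), beside -0.003 over all genes, of which 49.8% were above 0. Over all members the lower and upper quartiles were 0.02 and 0.43, and over all genes -0.33 and 0.30. Whole lung tissue was measured, so a different amount of RNA per cell and a different number of cells of a type cannot be told apart here.

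**Figure D1:**
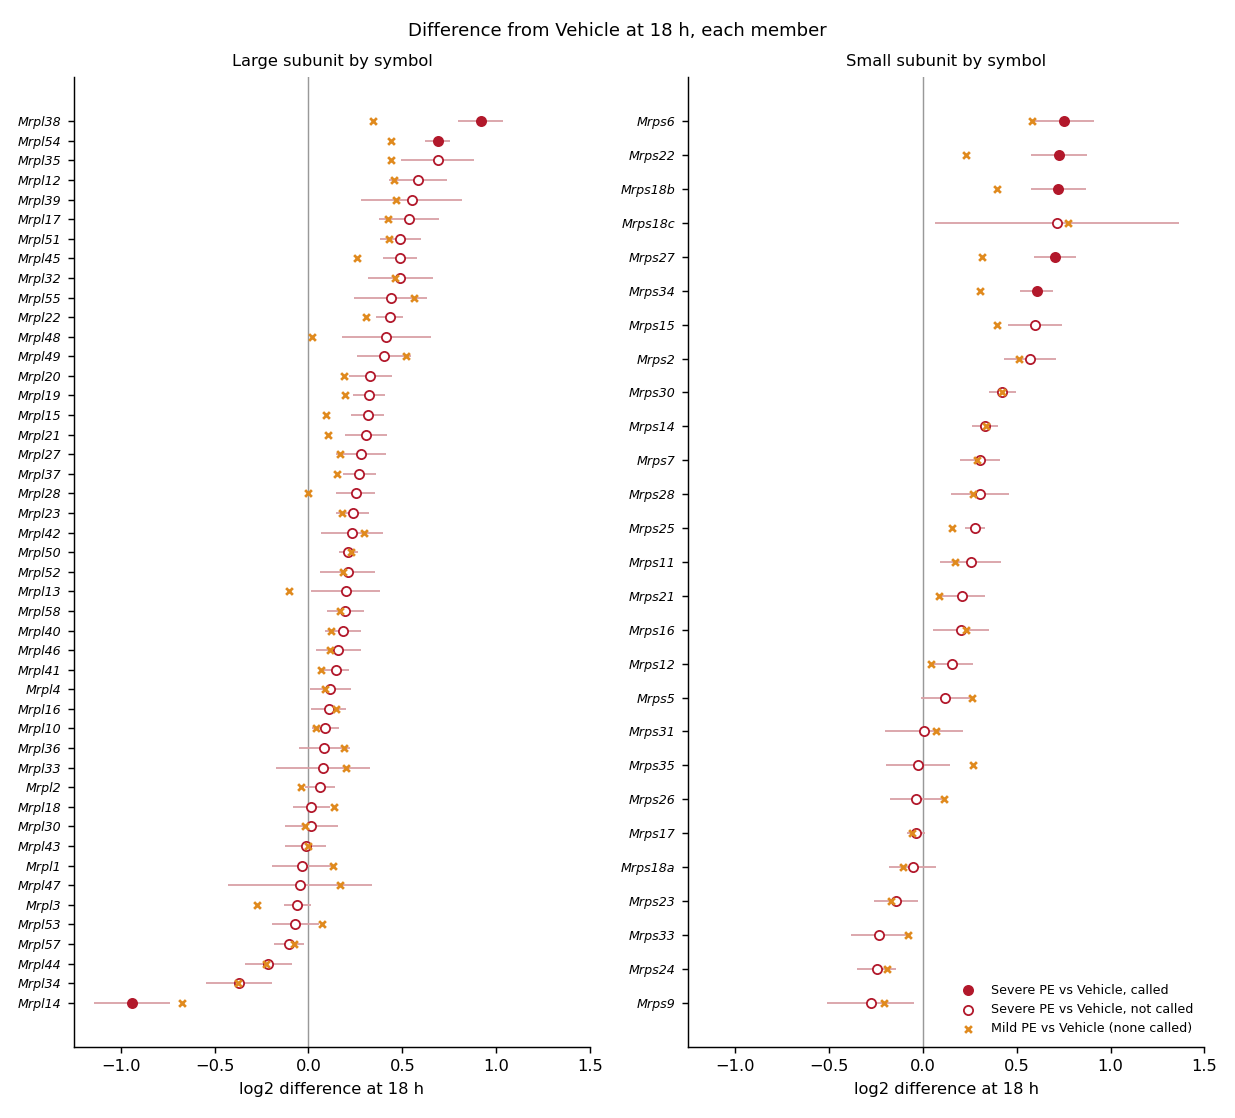
log2 difference from 18-h Vehicle for each large and small subunit member, in 18-h Severe PE (circles, filled where called, with 1 SE) and in 18-h Mild PE (crosses). Most points lie right of 0, from 0.92 for Mrpl38 down to -0.94 for Mrpl14 in Severe PE.

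Mrpl38 is a large subunit protein with no bacterial counterpart that lies at the central protuberance. It measured 9.59, 9.84, 9.83 and 9.69 in the 18-h Severe PE rats, against 9.0, 8.59 and 8.85 in the 18-h Vehicle rats. The lowest Severe PE rat was well above the highest Vehicle rat. The difference was 0.92 ± 0.12 (SE; 1.89-fold, limma adjusted p = 0.0145). In the 18-h Mild PE rats it was 8.83 to 9.35, overlapping Vehicle. Its group means at 2 h were 8.64 ± 0.20 in Severe PE (SD, n = 4) and 8.25 ± 0.20 in Vehicle (n = 3).

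Mrpl54 was the member with the smallest adjusted p. Its signal was 12.25, 12.17, 12.33 and 12.16 in 18-h Severe PE lungs, against 11.59, 11.44 and 11.59 in 18-h Vehicle lungs, a difference of 0.69 ± 0.07 (1.61-fold, adjusted p = 0.00843). All 4 Severe PE rats were above all Vehicle rats, and the same held for the Mild PE rats at 18 h, which ranged from 11.70 to 12.18. At 2 h the 3 doses overlapped, between 11.06 and 11.60.

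Of the small subunit members, Mrps6, the counterpart of bacterial S6, measured 10.95, 10.96, 11.43 and 11.24 in 18-h Severe PE rats, against 10.62, 10.22 and 10.35 in 18-h Vehicle rats (0.75 ± 0.16, 1.68-fold, adjusted p = 0.0432). The 18-h Mild PE rats, at 10.81 to 11.21, were also all above Vehicle, but their difference of 0.58 did not pass (adjusted p = 0.0980). Mrps6 lost its call when any 1 of the 7 rats was left out, with adjusted p up to 0.201 over all alternatives.

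Mrps18b is one of several mammalian relatives of bacterial S18. It measured 11.51, 11.50, 11.49 and 10.98 in 18-h Severe PE rats, against 10.59, 10.64 and 10.71 in 18-h Vehicle rats, a difference of 0.72 ± 0.15 (1.65-fold, adjusted p = 0.0391). The groups did not overlap, although rat 4 of Severe PE was well below the other 3.

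Mrps27, a pentatricopeptide repeat protein of the small subunit, measured 9.14, 9.49, 9.58 and 9.33 in 18-h Severe PE rats, against 8.71, 8.66 and 8.67 in 18-h Vehicle rats (0.71 ± 0.11, 1.63-fold, adjusted p = 0.0218). The groups did not overlap. Its other probesets differed in the same direction, one by 1.34 (adjusted p = 0.0183) and one by 0.65 (adjusted p = 0.0623).

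Mrps34, whose loss in people impairs assembly of the small subunit, measured 10.80, 11.09, 11.04 and 10.90 in 18-h Severe PE rats, against 10.44, 10.32 and 10.30 in 18-h Vehicle rats (0.61 ± 0.09, 1.52-fold, adjusted p = 0.0181). Mrps22, mutations of which impair mitochondrial translation in people, measured 7.89, 8.06, 7.94 and 7.64, against 6.89, 7.34 and 7.24 (0.73 ± 0.15, 1.65-fold, adjusted p = 0.0385). Neither pair of groups overlapped. A dimmer probeset of Mrps22, under the floor on 5 arrays, differed by 0.15 (adjusted p = 0.848).

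Mrpl14 was the only member called lower. It lies on the face of the large subunit that meets the small subunit and is the docking site of the assembly factor Malsu1 in the human particle. It measured 9.61, 9.92, 9.73 and 9.07 in 18-h Severe PE rats, against 10.47, 10.53 and 10.58 in 18-h Vehicle rats. Its difference was -0.94 ± 0.20 (1.92-fold lower, adjusted p = 0.0450). The 18-h Mild PE rats, at 9.61 to 10.09, were also all below Vehicle (-0.67, adjusted p = 0.0703). The 18-h Vehicle rats also lay above the 2-h Vehicle rats (10.00 to 10.34), and the 3 doses overlapped at 2 h, between 9.89 and 10.72.

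**Figure D2:**
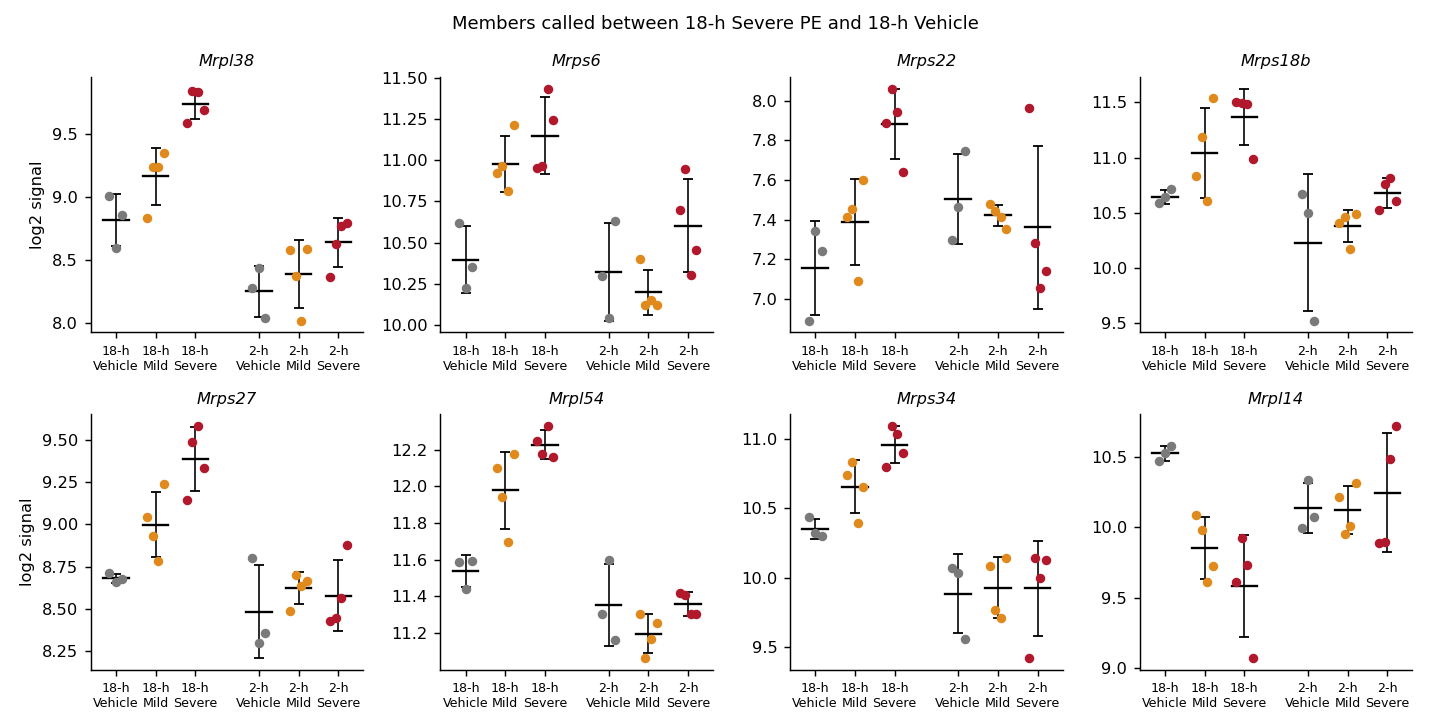
log2 signal of the 8 members called between 18-h Severe PE and 18-h Vehicle, by group; each point is 1 rat, the line is the group mean and the bar is 1 SD. The 18-h Severe PE points lie clear of the 18-h Vehicle points in every panel, above them in 7 and below them in Mrpl14. The genes were picked by their call between these same groups, so this separation is not separate evidence.

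These calls depended on single rats to different degrees. Mrpl38 and Mrpl54 kept theirs whichever of the 7 rats was left out, whereas Mrps22, Mrps18b and Mrpl14 kept it in 1 of the 7 cases, Mrps27 and Mrps34 in 3 and Mrps6 in none. Without 18-h Vehicle rat 1, the array of that comparison with weak 5′ signal, 4 members were called in place of 8, all of them higher (Mrpl38, Mrpl54, Mrps34 and, not among the 8, Mrpl55). Without 18-h Vehicle rat 2, 18-h Vehicle rat 3 or 18-h Severe PE rat 2 it was 2, without 18-h Severe PE rat 3 it was 3 and without 18-h Severe PE rat 1 it was 5. Shares of all probesets are not set beside these counts. A loss particular to the members thus cannot be told from a loss over the whole array. The median over the members moved little under the same omissions, from 0.19 to 0.24 over the large and from 0.19 to 0.32 over the small subunit.

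A further 6 members passed the test below 1.5-fold, all higher in 18-h Severe PE. They were Mrpl51 (0.49 ± 0.11), Mrpl45 (0.49 ± 0.09), Mrpl22 (0.43 ± 0.07), Mrps30 (0.42 ± 0.07), Mrps14 (0.33 ± 0.07) and Mrps25 (0.28 ± 0.05), with limma adjusted p between 0.0243 and 0.0481. Mrpl45 sits by the exit of the tunnel through which the new chain leaves, facing the inner membrane. Larger differences with a wide error did not pass. Mrps18c differed by 0.72 ± 0.65 (adjusted p = 0.564), since 18-h Vehicle rat 2 measured 7.19 and the other Vehicle rats 10.00 and 9.17. Mrpl35 differed by 0.69 (adjusted p = 0.0890), and Mrpl34 (-0.37, adjusted p = 0.262) and Mrps9 (-0.28, adjusted p = 0.527) were the lowest after Mrpl14.

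Members with a bacterial counterpart and those without were set apart. The 43 with a counterpart had a median difference of 0.21, with 2 called higher and 1 lower. The 30 without one had a median of 0.22, with 5 called higher. Where a gene had several probesets, they did not always tell the same story. All probesets of a gene had the same sign in this comparison for 9 of 18 such genes, and in Mrpl37, Mrps18c, Mrps2 and Mrps9 they lay well apart on opposite sides of 0. In Mrps9 the brightest probeset gave -0.28 and the other 0.34. In Mrpl49 the brightest gave 0.40 (adjusted p = 0.152), while a second probeset gave 0.70 (adjusted p = 0.0248).

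The starts of the genes were read next, since the promoters of many mitochondrial ribosomal protein genes are known to bind the factors GABP, NRF1 and YY1. RefSeq promoter windows of build GRCr8, from 250 bases before to 50 after the start, matched 59 of the 73 members. Both strands were searched for CCGGAAG (GABP), the palindromic NRF1 motif, AAGATGGCG (YY1), GGGCGG (Sp1) and CACGTG (E-box), which may overlap one another. GABP letters occurred in 33.9% of the member promoters, against 15.2% of the 11503 promoters of protein-coding genes on the array and 11.2% of all 19005. NRF1 letters occurred in 20.3%, against 11.2% and 8.0%, and YY1 letters in 13.6%, against 3.2% and 2.3%. Sp1 letters occurred in 50.8%, against 58.0% and 43.1%, and the E-box in 10.2%, against 9.0% and 7.3%.

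Another annotated gene began within 1000 bases on the opposite strand, head to head, for 30.5% of the members, against 13.7% on the array and 10.4% in all. One such pair, Mrps11 and Mrpl46, joins a small and a large subunit gene 234 bases apart. In 18-h Severe PE against 18-h Vehicle they differed by 0.26 and 0.16 (adjusted p = 0.407 and 0.489). Mrps27 shares its start region with Ptcd2, which lies 91 bases away.

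The windows of 4 of the called members are shown, with every match in capitals, because the called genes differed in the letters they hold. Mrps18b (chr20:2842756-2843055, plus strand) holds matches to GABP, NRF1, Sp1 and the E-box. Mrps27 (chr2:32473954-32474253, plus strand) holds GABP, YY1 and Sp1. Mrpl54 (chr7:9103275-9103574, plus strand) holds only an E-box, and Mrpl14 (chr9:22811184-22811483, minus strand), the gene called lower, holds NRF1 and 5 of Sp1.
Mrps18b: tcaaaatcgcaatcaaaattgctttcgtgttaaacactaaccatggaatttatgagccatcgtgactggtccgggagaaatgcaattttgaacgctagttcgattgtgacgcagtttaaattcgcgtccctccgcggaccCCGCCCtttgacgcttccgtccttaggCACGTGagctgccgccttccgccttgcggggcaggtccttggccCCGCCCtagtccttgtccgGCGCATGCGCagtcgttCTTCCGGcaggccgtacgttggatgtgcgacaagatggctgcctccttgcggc
Mrps27: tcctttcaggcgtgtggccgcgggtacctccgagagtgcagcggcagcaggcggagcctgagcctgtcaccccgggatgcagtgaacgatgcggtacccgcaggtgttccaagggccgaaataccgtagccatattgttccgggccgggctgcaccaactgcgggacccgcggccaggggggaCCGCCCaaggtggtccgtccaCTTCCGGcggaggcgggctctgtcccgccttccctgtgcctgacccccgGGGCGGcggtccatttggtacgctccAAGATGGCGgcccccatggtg
Mrpl54: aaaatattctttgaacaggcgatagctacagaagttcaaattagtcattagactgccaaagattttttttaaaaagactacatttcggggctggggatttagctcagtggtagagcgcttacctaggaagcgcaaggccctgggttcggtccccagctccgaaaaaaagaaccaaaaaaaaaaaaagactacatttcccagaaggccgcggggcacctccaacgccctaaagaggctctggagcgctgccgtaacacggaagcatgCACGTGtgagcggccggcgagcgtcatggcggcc
Mrpl14: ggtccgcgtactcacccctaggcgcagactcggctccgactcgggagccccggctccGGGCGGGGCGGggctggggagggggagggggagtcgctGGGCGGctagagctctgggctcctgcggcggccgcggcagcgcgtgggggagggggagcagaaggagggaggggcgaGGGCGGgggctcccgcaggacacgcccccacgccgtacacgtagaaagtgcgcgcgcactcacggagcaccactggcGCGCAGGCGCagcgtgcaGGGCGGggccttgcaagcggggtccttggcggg

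Mrps6 matched a window with none of these letters, and the windows of Mrpl38, Mrps22 and Mrps34 were not used here. Sorted by letters, members with GABP had a median difference of 0.16 in 18-h Severe PE against 18-h Vehicle (20 genes) and members without it 0.25 (39 genes). For NRF1 the medians were 0.23 with (12 genes) and 0.21 without (47 genes), and for YY1 0.22 (8 genes) and 0.21 (51 genes). For Sp1 they were 0.16 with (30 genes) and 0.25 without (29 genes), and for the E-box 0.40 (6 genes, 2 of them called) and 0.21 (53 genes, 3 called). No E-box gene lay near 0.40. Mrpl30, Mrpl36 and Mrpl4 were at 0.02 to 0.12, and Mrpl54, Mrps18b and Mrps18c, the last with a wide error, at 0.69 to 0.72. All these values describe letters in a window and say nothing of binding.

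Most members had a higher mean after Mild PE at 18 h too, but none was called. Against 18-h Vehicle limma called no member, while 1.03% of all probesets were. The methods' t-test called none either. At unadjusted p below 0.05 there were 24 of 73 (32.9%, against 24.6% of all genes). The median difference was 0.16 over the large subunit (36 of 46 above 0) and 0.23 over the small subunit (21 of 27 above 0), against -0.004 over all genes. This comparison shares its 3 Vehicle rats with that of Severe PE, so the values of the 2 comparisons are not independent. The largest positive differences were in Mrps18c (0.77 ± 0.65), Mrps6 (0.58 ± 0.13) and Mrpl55 (0.56 ± 0.20), and the largest negative ones in Mrpl14 (-0.67 ± 0.13), Mrpl34 (-0.37 ± 0.15) and Mrpl3 (-0.28 ± 0.11), with adjusted p from 0.0703 to 0.600. The second probeset of Mrpl49 differed by 0.61 (adjusted p = 0.0372). Its brightest differed by 0.52 (adjusted p = 0.117).

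Severe and Mild PE at 18 h were compared directly. No probeset at all was called (0% of 31042), and hence no member. At unadjusted p below 0.05 there were 11 of 73 members (15.1%, against 17.3% of all genes), and the methods' t-test called none. The medians were 0.06 over the large and 0.03 over the small subunit. Mrpl38 was farthest apart, at 9.59 to 9.84 in Severe PE and 8.83 to 9.35 in Mild PE, groups that did not overlap (0.57 ± 0.12, adjusted p = 0.142). Mrps22 followed, at 7.64 to 8.06 in Severe PE and 7.09 to 7.60 in Mild PE (0.49 ± 0.13, adjusted p = 0.190).

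At 2 h no member was called against Vehicle, by limma or by the methods' t-test. In Severe PE, where 0.0226% of all probesets were called, 2 members had an unadjusted p below 0.05 (2.74%, against 8.45% of all genes), with medians of -0.02 over the large and 0.04 over the small subunit. In Mild PE, where 0.332% were called, there were 3 (4.11%, against 15.5%), with medians of 0.05 and 0.05. The largest positive differences in Severe PE were in Mrps18b (0.45), Mrpl38 (0.39) and Mrps6 (0.28), and the largest negative ones in Mrps31 (-0.54), Mrps35 (-0.50) and Mrpl18 (-0.35), with adjusted p from 0.607 to 0.844. The difference in Mrps18b rested on 2-h Vehicle rat 3, of weak 5′ signal, which measured 9.52 beside 10.67 and 10.49 in the other Vehicle rats. In Mild PE, Mrpl34 (0.33), Mrpl57 (0.33) and Mrpl46 (0.21) were highest, and Mrpl47 (-0.51), Mrpl13 (-0.25) and Mrps31 (-0.23) lowest. Their adjusted p by limma ran from 0.412 to 0.637.

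Between Severe and Mild PE at 2 h no member was called either (limma, with 0.438% of all probesets called and 10 members at unadjusted p below 0.05, 13.7% against 13.8% of all genes; the methods' t-test, none). Mrps30 alone passed the test, below the fold required. It measured 9.27, 9.28, 9.35 and 9.29 in 2-h Severe PE and 9.61, 9.71, 9.60 and 9.59 in 2-h Mild PE, groups that did not overlap (-0.33 ± 0.04, adjusted p = 0.0322). Without 2-h Severe PE rat 1, of weak 5′ signal, 1 member, Mrps35, was called.

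Whether the effect of PE changed with time was tested as the difference between times in the difference from Vehicle, in a fit of all 22 arrays. For Severe PE, 5.73% of all probesets were called, and 8 members. In 7 of these (Mrps15, Mrpl35, Mrpl32, Mrpl54, Mrpl45, Mrpl51 and Mrps30) the effect was more positive at 18 h and in Mrpl14 more negative. By gene, 3.36% of all genes were called more positive and 4.86% more negative at 18 h. The median over the members was 0.27 for the large and 0.25 for the small subunit, beside -0.01 over all genes. For Mild PE, where 0.744% of probesets were called, limma called no member, with 11 at unadjusted p below 0.05 (15.1%, against 18.0% of all genes) and none by the methods' t-test. The medians were 0.14 and 0.17.

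Mrps15, the counterpart of bacterial S15, had the largest positive value, 0.90 ± 0.20 (1.86-fold, adjusted p = 0.0116). It measured 10.14, 10.48, 10.59 and 10.18 in 18-h Severe PE against 9.56, 9.82 and 9.87 in 18-h Vehicle, and 9.80, 9.44, 9.64 and 9.48 in 2-h Severe PE against 9.90, 9.72 and 10.06 in 2-h Vehicle. The groups were apart at 18 h and overlapped at 2 h. It kept its call in all 9 alternatives and with any 1 of 14 rats left out.

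Mrpl45 gave 0.61 ± 0.11 (adjusted p = 0.00315). It measured 10.13, 10.37, 10.47 and 10.32 in 18-h Severe PE against 9.81, 9.79 and 9.90 in 18-h Vehicle, and 10.01, 9.87, 9.84 and 9.95 in 2-h Severe PE against 10.13, 10.07 and 9.93 in 2-h Vehicle. The order of the groups was thus turned round at 2 h, with overlap.

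Mrpl51 gave 0.60 ± 0.13 (adjusted p = 0.0131), with means of 10.46 and 9.97 in Severe PE and Vehicle at 18 h and of 10.17 and 10.28 at 2 h. Mrpl32, whose maturation depends on the m-AAA protease of the inner membrane in yeast and mouse, gave 0.73 ± 0.18 (adjusted p = 0.0203), with means of 10.16 and 9.68 at 18 h and of 9.76 and 10.00 at 2 h. Mrpl35 gave 0.77 ± 0.22 (adjusted p = 0.0445), Mrpl54 0.68 ± 0.15 (adjusted p = 0.0128) and Mrps30 0.59 ± 0.13 (adjusted p = 0.0149). Mrpl14 gave -1.05 ± 0.29 (adjusted p = 0.0403). With 1 of the 14 rats left out, Mrpl54 kept its call in 13 of 14 cases, Mrpl32 and Mrpl45 in 12, Mrps30 in 7, Mrpl51 in 6, Mrpl14 in 5 and Mrpl35 in 4. Without the 4 arrays of weak 5′ signal 8 members were called, all more positive at 18 h. Of these, Mrps15, Mrpl32, Mrpl54, Mrpl45 and Mrps30 were among the first 8, while Mrpl14, Mrpl35 and Mrpl51 were replaced by Mrpl22, Mrpl55 and Mrps22. Mrpl14 and Mrpl35 were also not called by the methods' t-test. With each array centred on its median, 2 of the 8 (Mrpl14 and Mrps15) were still called. The counts under these other settings are given without the shares of all probesets. A change particular to the members thus cannot be told from one over the whole array.

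**Figure D3:**
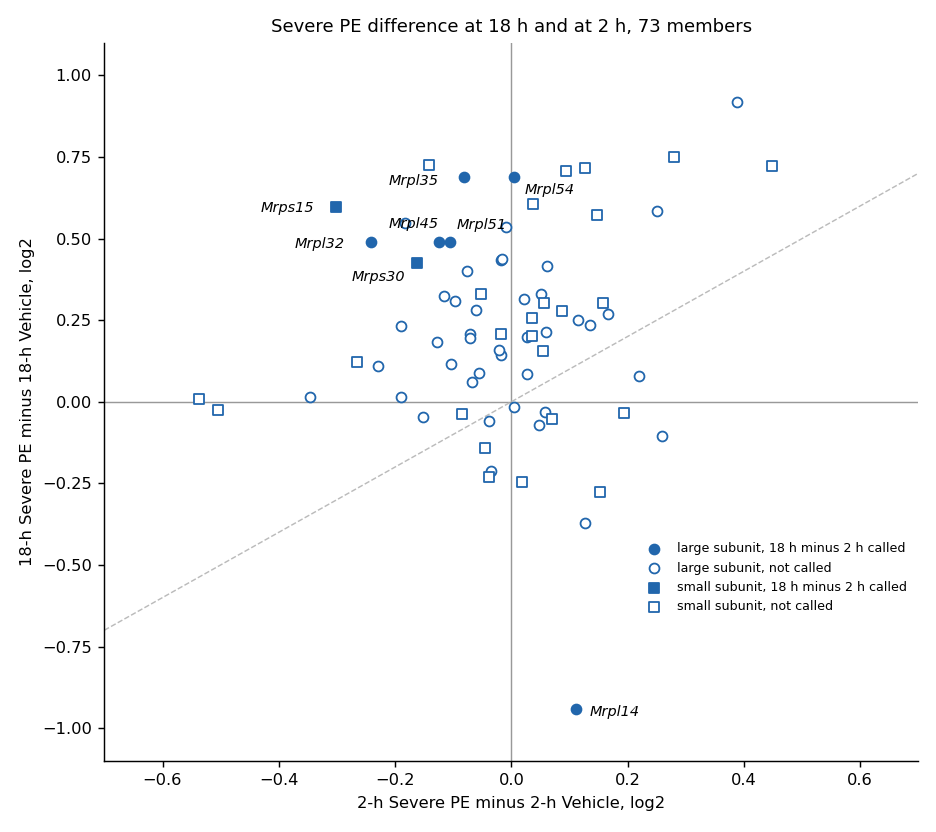
For each of the 73 members, the log2 difference between Severe PE and Vehicle at 18 h (vertical axis) and at 2 h (horizontal axis); circles are large and squares small subunit genes, filled where the difference between the times was called, and the dashed line marks equal differences. The 7 filled points other than Mrpl14 lie at 0.42 to 0.69 at 18 h and at -0.30 to 0.00 at 2 h.

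The 3 genes left aside for their lower-case symbols are large subunit proteins with bacterial counterparts. In 18-h Severe PE against 18-h Vehicle, mrpl24 differed by 0.96 ± 0.09 and was called (adjusted p = 0.00764). It measured 11.70, 11.64, 11.68 and 11.57 in Severe PE rats, against 10.51, 10.83 and 10.73 in Vehicle rats, with no overlap. The gene mrpl9 differed by -0.49 ± 0.07 (adjusted p = 0.0177, below 1.5-fold) and mrpl11 by 0.38 ± 0.09 (adjusted p = 0.0648). Of the 5 other proteins of the particle that carry other symbols, among them Dap3, the GTP-binding protein of the small subunit, and Chchd1, none was called. All 5 were above 0, with a median of 0.30.

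The genes that assemble and serve the mitochondrial ribosome were counted in the same comparison, 18-h Severe PE against 18-h Vehicle. Of 25 assembly factors 2 were called, both higher (8%, against 9.90% of all genes called), with a median of 0.09. These were C1qbp, a matrix protein needed for mitochondrial translation in mouse (0.68 ± 0.09, adjusted p = 0.0157), and the GTPase Noa1 (0.65 ± 0.14, adjusted p = 0.0482). C1qbp measured 12.95, 13.21, 13.22 and 13.04 in Severe PE rats, against 12.39, 12.53 and 12.34 in Vehicle rats, with no overlap. Ngrn, which binds the large subunit RNA, passed below 1.5-fold in the other direction (-0.45, adjusted p = 0.0372). None of 15 translation factors was called (median 0.15), nor any of 16 mitochondrial tRNA synthetases and their partners (median -0.04), nor any of 7 processing and quality control proteases (median 0.26). At unadjusted p below 0.05 these 3 lists had 3, 3 and 3 genes (20%, 18.8% and 42.9%, against 33.4% of all genes). Among them, Gatc (0.44, adjusted p = 0.0188), Rars2 (0.44, adjusted p = 0.0294) and Pmpca (0.46, adjusted p = 0.0431) passed below 1.5-fold.

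Of 14 genes of mitochondrial transcription and its regulators 2 were called, both higher (14.3%, against 9.90% of all genes called). Pprc1, a coactivator of the PGC-1 family that responds to growth signals, measured 10.70, 10.86, 10.87 and 10.23 in 18-h Severe PE rats, against 10.02, 9.66 and 9.73 in 18-h Vehicle rats (0.86 ± 0.19, adjusted p = 0.0463). It was also called in 18-h Mild PE against 18-h Vehicle (0.97 ± 0.12, adjusted p = 0.0367). Myc, a transcription factor that drives ribosome production, measured 10.49, 10.91, 10.33 and 10.25, against 9.41, 8.82 and 9.36 (1.30 ± 0.22, adjusted p = 0.0252). Neither gene's groups overlapped. In 2-h Severe PE against 2-h Vehicle, where the medians over the members were -0.02 and 0.04, Myc differed by 1.71 ± 0.23 and Pprc1 by 1.01 ± 0.10, with no overlap and adjusted p of 0.135 and 0.0882. Ppargc1a, the coactivator best known for raising mitochondrial mass, differed by -0.96 ± 0.29 at 18 h (adjusted p = 0.103). Nrf1 differed by -0.26, Gabpa by 0.29 and Tfam, which packages mitochondrial DNA, by 0.12, with adjusted p of 0.186, 0.731 and 0.589.

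The 80 nuclear subunits of the respiratory chain and ATP synthase, most of whose complexes also hold products of the mitochondrial ribosome, had a median of 0.03. None was called higher and 4 were called lower (5%, against 9.90% of all genes called). The 48 cytosolic ribosomal proteins had a median of 0.06, with 1 called, higher (2.08%). The difference between the members and these lists was not tested.

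**Figure D4:**
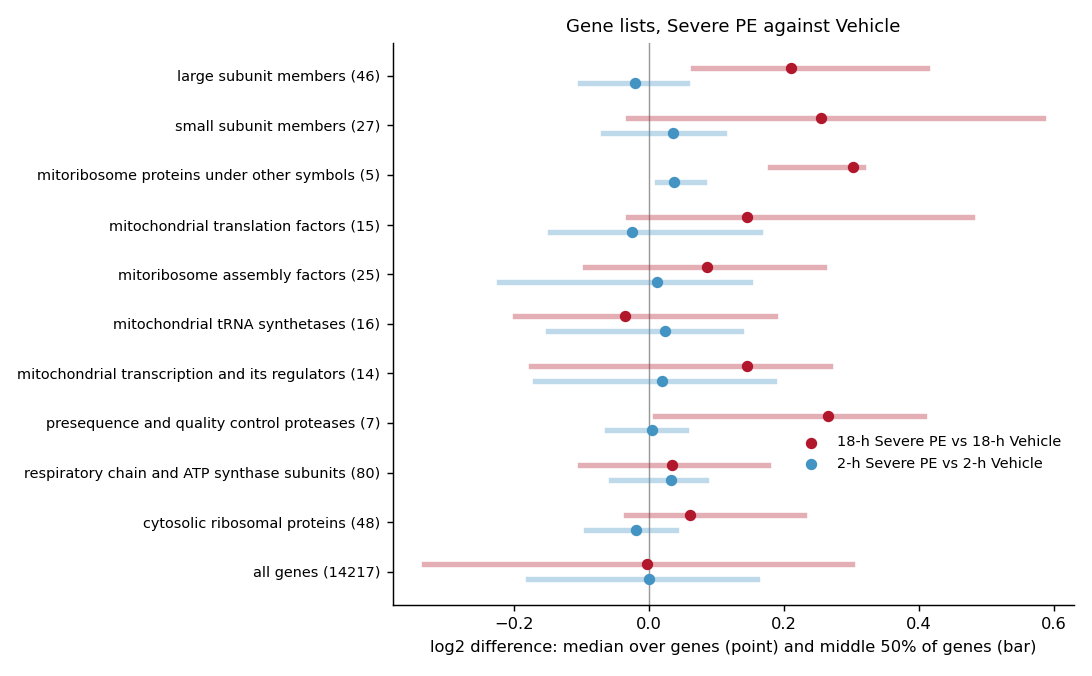
Median (point) and middle 50% of genes (bar) of the log2 difference between Severe PE and Vehicle at 18 h and at 2 h, for the members, the related lists and all genes, with the number of genes in brackets. At 18 h the medians were 0.21 for the large and 0.26 for the small subunit, 0.03 for the respiratory chain and 0.06 for the cytosolic ribosomal proteins, and at 2 h all lay between -0.02 and 0.04.

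Markers of several cell types moved in the same comparison, in which 9.90% of all genes were called. The summed signal of 7 lymphocyte markers was 3910 to 6093 in 18-h Severe PE and 8500 to 10478 in 18-h Vehicle rats, and 3 of the 7 were called, lower. That of 7 endothelial markers was 26815 to 31684 in 18-h Severe PE and 44097 to 45982 in 18-h Vehicle, with 3 of 7 called, lower. Neither pair of ranges overlapped. That of 5 alveolar type I markers was 37833 to 45491 and 52459 to 59417, with none called. For 8 macrophage and monocyte markers the sums were 15172 to 18790 and 16214 to 17987, with 1 called, higher. Bright markers weigh most in such a sum, and of these Ly6c was lower (12.40 against 12.95) and Cd68 higher (12.48 against 11.90). The median difference over the 8 was 0.73, with 5 above 0. For 7 neutrophil markers the sums were 20100 to 38605 and 13436 to 25841, with none called and a median difference of 0.88. Among 10 proliferation markers, with sums of 6043 to 6379 and 4379 to 5007, 2 were called, higher. The median difference was -1.0 over 5 erythroid, -0.92 over 5 muscle, -0.20 over 4 club and ciliated cell and 0.06 over 8 alveolar type II markers, of which 1 club and ciliated cell marker was called lower and 1 type II marker higher. In these 2 groups Itgam and Ccr2 (macrophage and monocyte), Epb42 (erythroid) and Myh7 (muscle) had an array under the floor, and no list was at the floor as a whole. The part of these shifts in the values of the members was not tested.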

How the data were processed

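Each of the 22 arrays (Affymetrix Rat Genome 230 2.0) held RNA of 1 rat, and nothing in the sources used here ties rats of different groups. The values deposited by the authors were linear probeset signal intensities scaled to a common trimmed mean, not the log2 GC-RMA values their methods describe, so the software behind them is not given in the sources used here. After removal of 57 control probesets of 31099, signals under 16 were set to 16, log2-transformed and quantile-normalized, and groups were compared with limma 3.58.1 in R 4.3.3. Pairwise fits used only the groups compared, while the 2-way model and the contrasts between times used all arrays. P-values were adjusted (Benjamini-Hochberg) over 31042 probesets. Of these, 20826 had 1 gene, 436 several and 9780 none in the platform annotation, whose symbols were updated by gene ID to RefSeq of GRCr8. The 73 members had 97 probesets.

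Named members were those called, the 3 largest rises and falls against Vehicle in each PE group, and genes with probesets on opposite sides of 0. Values of mrpl24, Mrpl49 probesets and the time term's highest and lowest members were chosen after they were seen. Members and lists were chosen with earlier results of these data known. The fits were checked on simulated data. The number of arrays limits the precision. P-values set a difference against the spread between rats, which limma moderates with the variances of all probesets. Alternatives were another scaling, floor, filter, variance trend, test, set of samples and probeset rule, and arrays left out.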

Additional observations from a re-analysis of the deposited data

Results flagged for a closer look

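In 8 members the difference of Severe PE from Vehicle changed between 18 h and 2 h by the test of that change in limma, although the calls of Mrpl14, Mrpl35 and Mrpl51 were lost without the 4 arrays of weak 5′ signal. With 1 of 14 rats left out, Mrpl35 kept its call in 4 cases, Mrpl14 in 5, Mrpl51 in 6 and Mrps30 in 7, and the other 4 genes in 12 to 14. The change was -1.05 in Mrpl14, where Severe PE differed from Vehicle by -0.94 at 18 h and by 0.11 at 2 h. It was 0.90 in Mrps15 (0.60 and -0.30), 0.77 in Mrpl35 (0.69 and -0.08), 0.73 in Mrpl32 (0.49 and -0.24), 0.68 in Mrpl54 (0.69 and 0.00), 0.61 in Mrpl45 (0.49 and -0.12), 0.60 in Mrpl51 (0.49 and -0.11) and 0.59 in Mrps30 (0.42 and -0.16).

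In 8 of 140 groups of 4 rats examined, 1 rat stood apart from the other 3, and chance gives about 1 in 20. Mrps18b was 10.98 in 18-h Severe PE rat 4, where the others were 11.49 to 11.51. In 18-h Severe PE rat 3, Mrpl52 was 10.63 (others 10.12 to 10.15) and Mrps35 was 9.21 (others 8.63 to 8.71). Mrps2 was 10.01 in 18-h Mild PE rat 3 (others 10.40 to 10.44). At 2 h, Mrpl34 was 9.51 in Severe PE rat 1, an array of weak 5′ signal (others 9.94 to 10.01). In 2-h Mild PE, Mrps6 was 10.40 in rat 1 (others 10.12 to 10.15), Mrps30 was 9.71 in rat 2 (others 9.59 to 9.61) and Mrpl45 was 10.01 in rat 4 (others 10.12 to 10.13).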

How the results depend on the processing

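The 8 members called in 18-h Severe PE against 18-h Vehicle became 4 with median centring, with a floor of 64, by the methods' t-test or without the 4 arrays of weak 5′ signal, 5 with no further normalization, 10 with dim probesets left out or with 1 fit on all arrays (both adding Mrpl35 and Mrps15), and 2 to 7 with 1 rat left out. With the replicate number as a block no probeset was called there, and no member (0); in the change between times in Severe PE the block left 6, without Mrpl14 and Mrpl35. Deviations from the group means of same-numbered rats in different groups had a median correlation of -0.01 (-0.273 to 0.123). With so few rats this cannot show whether the numbers stand for a shared condition. For the change between times in Severe PE, 8 became 2 with median centring and 3 to 8 with 1 rat left out. In the 2-way model 17 became 28 with median centring and 15 to 21 with 1 rat left out. In 18-h Mild PE against 18-h Vehicle, 0 became 1 with dim probesets left out or all probesets of a gene averaged. In 18-h against 2-h Vehicle, 0 became 2 with 1 fit on all arrays. In 2-h Severe against Mild PE, 0 became 1 without the weak 5′ arrays and 0 to 1 with 1 rat left out, and for the change in Mild PE it was 0 to 1. Most of these counts stand without the share of all probesets called. Whether the members or the whole array gained or lost calls cannot be read from them.

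Median differences moved in few settings. In 18-h against 2-h Vehicle they were 0.30 for the large and 0.25 for the small subunit with median centring, which itself moved the median of all probesets to 0.17, and 0.058 for the large subunit without the weak 5′ arrays. For the change in Mild PE the large subunit gave 0.056 with median centring. In 18-h Mild PE against 18-h Vehicle the small subunit gave 0.12 without the weak 5′ arrays. With 1 rat left out, the change in Mild PE was 0.048 to 0.17 for the large and 0.10 to 0.25 for the small subunit, and the change in Severe PE 0.19 to 0.30 and 0.19 to 0.35. At 2 h, medians against Vehicle changed sign with the rat left out, from -0.02 to 0.08 and -0.02 to 0.11 in Mild PE and from -0.08 to 0.02 and -0.06 to 0.10 in Severe PE. The time term, whose alternatives were chosen after seeing the data, passed in 38 to 46 members with 1 rat left out and in 42 with the replicate block. The causes were not tested.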
